A study of Rattus norvegicus with 20 samples.

Results

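The genes described here encode voltage-gated and other cation channels and their accessory subunits. They are all genes of the array whose single rat symbol begins with Kcn (potassium channels), with Scn and a digit (sodium channels) or with Cacn (calcium channels). The rule found 78 genes, represented by 125 of the 8740 probe sets tested, among 4736 genes with a symbol of their own. For each gene the probe set with the highest mean over the 20 arrays was used, and 33 of the genes have more than 1 probe set.

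Transcript levels were measured in cultured rat cells of 4 groups. High-density progenitors (HD) have 6 arrays and low-density CCg progenitors (LD) were run on 4 arrays. The FBS group, 6 arrays, holds LD cells given FBS (usually fetal bovine serum) as the route to astrocytes, and the RA/Fsk group, 4 arrays, holds LD cells given RA/Fsk (usually retinoic acid and forskolin) as the route to neurons. The labels do not expand CCg, do not use it for HD and give no dose, duration or tissue of origin, so density and CCg cannot be told apart between HD and LD. Where titles within a group carry the same number, those arrays were averaged to 1 sample. This left 3 samples each of HD and LD and 4 each of FBS and RA/Fsk. Whether the numbers stand for independent cultures is not in the labels, so every p-value refers only to the spread among these samples, which may be technical.

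Potassium channels set the resting potential and end action potentials, sodium channels carry the upstroke of the action potential, and voltage-gated calcium channels turn depolarisation into calcium entry. Each voltage-gated channel has a large pore-forming alpha subunit, and smaller accessory subunits govern how much of it reaches the membrane and how it gates. Neurons carry many of these genes at once, while astrocytes are dominated by potassium conductances, in particular the inward rectifier Kir4.1, which Kcnj10 encodes.

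Levels are given as log2(intensity + 4.99), called log2 units, where 4.99 is 10% of the median positive intensity. On that scale the median of all values of the array was 5.77, which is an intensity of 49.6. A probe set was called weak when its mean in the brightest of the 4 groups lay below that median. Of the 78 channel genes, 53 (67.9%) were weak, against 37.0% of all named genes. The level stayed below the median in every one of the 14 samples for 35 channel genes and at or above it in every sample for 11. The threshold fell between Kcnma1, the large-conductance calcium-activated potassium channel, at 5.73 in its brightest group, and Kcnd3 at 5.78. The files hold no detection calls, so a weak probe set may or may not carry signal of its transcript, and the number of arrays limits the precision.

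A few facts on all samples bear on what follows. Arrays of the same numbered sample correlated at r = 0.951 to 0.975 over the tested probe sets, and the lowest of these values belongs to arrays 3 and 3r of FBS. The GAPDH 5' to 3' control ratio, a sign of RNA or cDNA quality, was -0.47 to -0.21 log2 units in LD, -0.20 to 0.05 in HD, -0.16 to -0.01 in FBS and -0.47 to -0.11 in RA/Fsk, so that LD did not overlap with HD or FBS. Of 8 measured astrocyte markers 4 rose with FBS (Aldoc, Glul, S100b and Slc1a3) and 3 with RA/Fsk (Aldoc, Glul and S100b). Without treatment, 1 of them, Aldoc, was also higher in HD than in LD, by 0.94 log2 units (limma, adjusted p = 0.0127). At an unadjusted p under 0.05, 4 were higher in HD. Of 8 measured neuron markers 0 rose with RA/Fsk in limma, 0 also at an unadjusted p under 0.05, and the growth cone gene Gap43 fell by 0.88 log2 units, so the neuron label of that group was not borne out by these markers. Their summed intensity was 1239 to 1527 in RA/Fsk and 1438 to 1544 in LD. In bulk RNA such as this, fewer cells of a type and less RNA per cell cannot be told apart.

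Few channel genes passed in any comparison. The criterion was an adjusted p from limma below 0.05, with Benjamini-Hochberg adjustment over the 8740 probe sets, and 10 of the 78 passed at least once. Between FBS and LD 8 passed, which is 10.3% of the channel genes, where 25.5% of all probe sets passed. Between RA/Fsk and LD 1 passed (1.28%, with 8.25% of all probe sets), between RA/Fsk and FBS 5 passed (6.41%, with 18.4%), and between HD and LD 0 passed (0.858% of all probe sets). Weak probe sets passed less often on the array as a whole. Of the 25 channel genes that were not weak, 4 passed between FBS and LD (16%), where 40.3% of the array's 4913 probe sets of that kind passed. Of the 53 weak ones 4 passed (7.55%), where 6.43% of 3827 did.

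**Figure D1:**
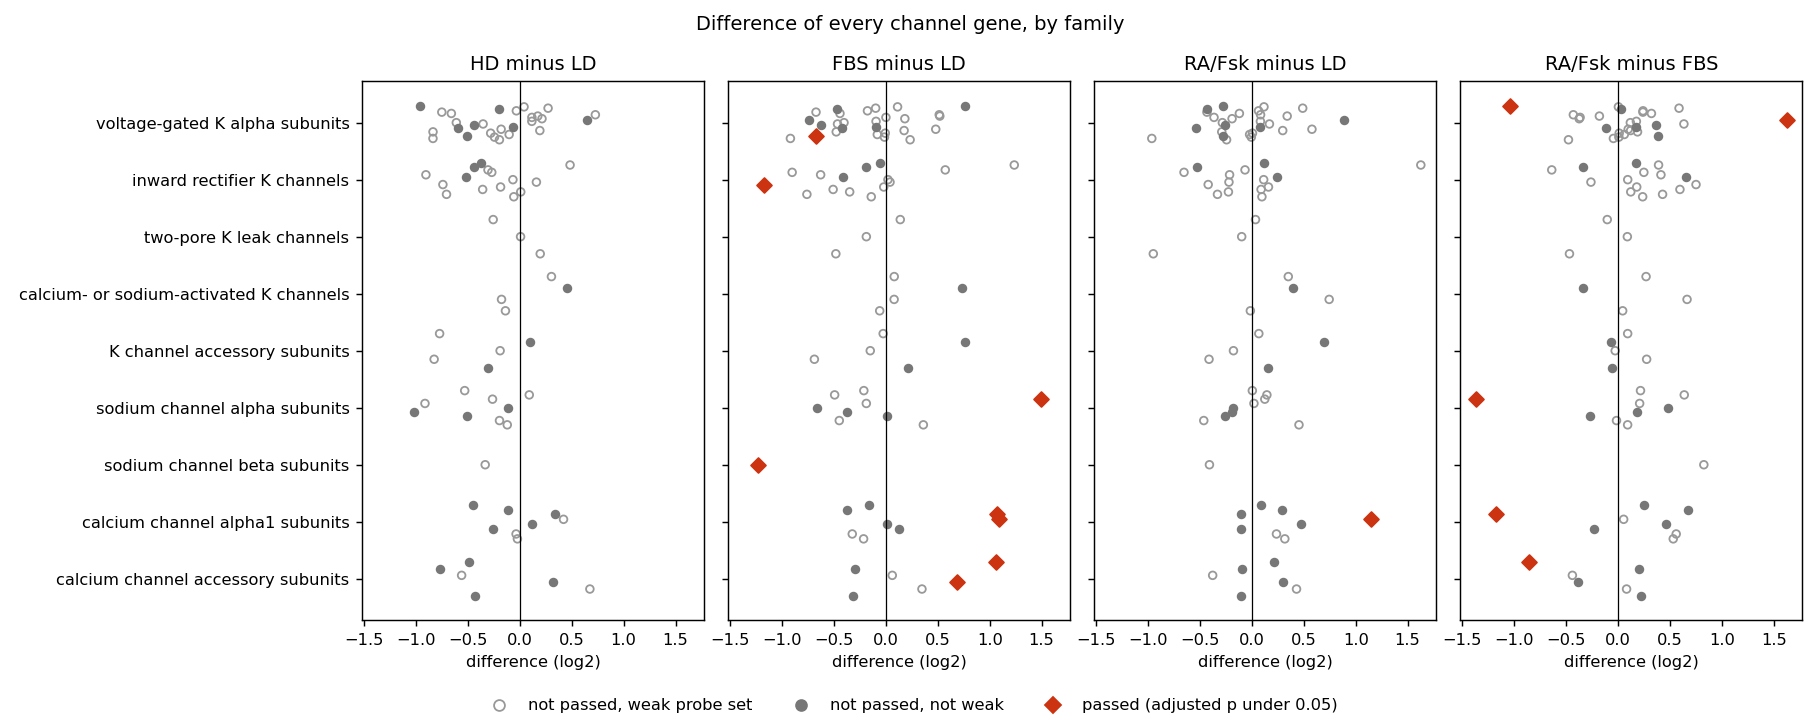
Difference of each of the 78 channel genes in the 4 comparisons (x axis, log2 units), by channel family (y axis). Open circles are weak probe sets and filled circles are others that did not pass, and red diamonds passed, numbering 0, 8, 1 and 5 from left to right.

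No channel gene passed between high-density and low-density progenitors. In limma 0 of 78 passed in either direction, and the smallest adjusted p was 0.177. At an unadjusted p under 0.05 there were 4 (5.13%, with 13.8% of all probe sets), all lower in HD. With each array as its own sample 1 gene, Scn4a, passed. Samples of HD and LD did not overlap for 16 genes (20.5%), a share near the 19.7% of all probe sets. The median difference was -0.20 log2 units over the channel genes and -0.08 over all probe sets, and 23 of the 78 differences were positive. With the GAPDH ratio as a covariate the same medians were -0.51 and -0.18.

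The largest difference was that of Scn4a, the skeletal muscle sodium channel, which was picked out after its values were seen. Its HD samples lay at 5.79, 4.88 and 5.61 and its LD samples at 6.27, 6.59 and 6.49. All 3 HD samples were thus below all 3 LD samples, by -1.02 ± 0.33 log2 units on average (SE, adjusted p = 0.177). The other Scn4a probe sets did not pass, and their HD and LD arrays overlapped. In intensity, one ran from 4.5 to 14.4 in HD and from 7.5 to 26.5 in LD. Another ran from 5.1 to 30.7 in HD and from 16.9 to 49.1 in LD. Kcna1, a delayed rectifier of axons, differed by -0.96 ± 0.33 (adjusted p = 0.195), with averaged HD samples at 4.53 to 4.64 and LD samples at 5.38 to 5.63. Single arrays of Kcna1 disagreed. The arrays of LD sample 1 had intensities of 101.3 and 18.1, the latter within the HD arrays at 9.8 to 37.2. The other Kcna1 probe set, which was weak, differed by -0.09 ± 0.47. Cacnb1, a beta subunit best known from skeletal muscle, differed by -0.76 ± 0.26 (adjusted p = 0.203). For the brightest probe sets the 95% limma intervals allow differences of moderate size. That of Kcnh3 ran from -0.41 to 0.29, that of Cacna1a from -1.02 to 0.13 and that of Kcnh2 from -0.98 to 0.10. For a second Cacna1a probe set, also not weak, the interval ran from -0.07 to 0.97, and its mean difference was of opposite sign. The weak Cacna1a probe sets differed by -0.03 and -0.78.

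Of 14 calcium channel genes 4 rose with FBS, 0 fell and 10 did not pass. Of all probe sets 25.5% passed in either direction (13.2% higher, 12.3% lower), and no set test was run on this family. The calcium channel genes that rose included the pore-forming subunits Cacna1c (Cav1.2) and Cacna1d (Cav1.3), which open on depolarisation and form the L-type channels. The others were the accessory subunits Cacna2d1 (alpha2delta-1), which brings channels to the membrane and binds gabapentin, and Cacnb3 (beta3), which sits on the inner face of the pore. The sodium channel gene Scn1a (Nav1.1) also rose. In all 5 channel genes rose (6.41%, with 13.2% of all probe sets) and 3 fell (3.85%, with 12.3%): Scn2b, Kcnq3 and Kcnj3. With median centring 5 rose and 6 fell, the additional ones being Kcnh2, Kcns3 and Scn3a. Samples of the 2 groups did not overlap for 14 channel genes (17.9%, with 35.4% of all probe sets).

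Cacna2d1 had LD samples at 7.26, 7.41 and 7.75 and FBS samples at 8.72, 8.34, 8.50 and 8.59. Every FBS sample was above every LD sample, and the mean rose by 1.06 ± 0.22 log2 units (adjusted p = 0.00157), or 2.09-fold on this scale. HD samples lay at 6.70 to 7.38 and RA/Fsk samples at 7.25 to 8.23, all below the FBS samples. The adjusted p stayed between 7.28e-05 and 0.0120 over 28 alternatives.

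The LD samples of Cacnb3 were at 6.92, 7.0 and 6.64 and its FBS samples at 7.60, 7.59, 7.40 and 7.55. The groups did not overlap, and Cacnb3 rose by 0.68 ± 0.16 log2 units (adjusted p = 0.00467, and 0.00151 to 0.0338 over 28 alternatives).

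Cacna1c lay at 6.55, 6.35 and 6.32 in LD and at 7.47, 8.17, 7.03 and 7.23 in FBS. Again no averaged sample of one group reached the other, and it rose by 1.07 ± 0.24 log2 units (adjusted p = 0.00268), or 2.10-fold. The arrays of LD sample 1 had intensities of 60.4 and 128.6, the latter above averaged FBS sample 3 at 125.4. On the log2 scale array 3 of FBS read 8.07 and array 3r of the same numbered sample 5.98, which is below all LD samples. With array 3r alone the difference was 0.81 (adjusted p = 0.119), and with the GAPDH ratio as a covariate it was 0.89 (adjusted p = 0.0532). The 2 other Cacna1c probe sets were weak and did not pass, at -0.55 ± 0.34 and 0.43 ± 0.42.

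The upstream sequences of these 3 genes are shown because they rose together on probe sets that were not weak. Each is the run of 250 bases before a RefSeq start site on GRCr8, 5′ to 3′ on the gene's own strand, with capitals marking the GC box GGGCGG and the core motif TGACG of the cAMP response element on either strand, overlaps included. Cacna1c lies on the minus strand (chr4:154051749-154051998), Cacna2d1 on the minus strand (chr4:20330148-20330397, the first of 3 start sites listed) and Cacnb3 on the plus strand (chr7:131666301-131666550).
Cacna1c: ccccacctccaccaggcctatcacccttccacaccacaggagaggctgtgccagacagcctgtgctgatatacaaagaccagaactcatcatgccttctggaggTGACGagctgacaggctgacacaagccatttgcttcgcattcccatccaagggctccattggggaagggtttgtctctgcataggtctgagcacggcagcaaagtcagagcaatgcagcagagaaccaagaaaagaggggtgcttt
Cacna2d1: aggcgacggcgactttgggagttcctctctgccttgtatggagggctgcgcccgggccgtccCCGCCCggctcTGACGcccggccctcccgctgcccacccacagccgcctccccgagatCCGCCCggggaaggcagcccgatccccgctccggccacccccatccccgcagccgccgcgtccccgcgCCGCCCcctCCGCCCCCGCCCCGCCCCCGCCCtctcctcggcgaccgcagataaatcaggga
Cacnb3: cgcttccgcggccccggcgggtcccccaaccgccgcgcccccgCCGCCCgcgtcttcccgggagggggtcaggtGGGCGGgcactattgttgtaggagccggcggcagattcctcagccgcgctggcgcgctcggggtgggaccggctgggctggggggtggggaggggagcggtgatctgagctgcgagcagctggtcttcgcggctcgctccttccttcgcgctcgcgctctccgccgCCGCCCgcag

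The window of Cacna1c held 1 TGACG, its first base 146 bases before the start, and no GC box, with 54.4% G and C. That of Cacna2d1 held 7 GC boxes and 1 TGACG at 77.2% G and C, and that of Cacnb3 held 3 GC boxes at 76.4%. The windows of the other Cacna2d1 start sites, not printed, held 3 GC boxes and 0 TGACG each. Cacna1d, not printed, held 9 GC boxes at 88.8%. Windows were listed for 58 of the 78 channel genes, of which 28 (48.3%) held a GC box and 12 (20.7%) a TGACG, where 32.4% and 19.0% of 27457 promoters did, taking the first window of each gene. The full element TGACGTCA and the CArG box, the site of serum response factor, were in 0 of the 58 windows and in 1.7% and 1.5% of all windows. The AP-1 site TGANTCA was in 3 of the 58 (5.17%) and in 6.36% of all. These matches describe letters in the window and are not evidence of a bound factor.

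Cacna1d was weak throughout, with no sample at the array median. Its LD samples were at 3.51, 3.61 and 4.48 and its FBS samples at 5.09, 5.23, 4.79 and 4.72. The highest LD sample lay just under the lowest FBS sample, and the mean rose by 1.09 ± 0.33 log2 units (adjusted p = 0.0201). That call ended without LD sample 1 (0.0927), LD sample 3 (0.0826), FBS sample 1 (0.0515) or FBS sample 2 (0.0579), and with the GAPDH covariate (0.106), within 0.00714 to 0.106 over the alternatives. The difference was 1.43 with an offset of 1 and 0.46 with an offset of 32. None of the 4 other Cacna1d probe sets, all weak, passed, and their differences ran from -0.62 to 0.38.

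The remaining calcium channel genes did not pass with FBS. Cacna1a (Cav2.1) and Cacna1b (Cav2.2), the P/Q-type and N-type channels of presynaptic terminals, differed by -0.16 ± 0.25 (adjusted p = 0.706) and -0.38 ± 0.25 (adjusted p = 0.32). A second probe set of Cacna1a, also not weak, differed by 0.28 ± 0.23 (adjusted p = 0.425), and its weak ones by 0.03 and -0.49. That of Cacna1b, not weak either, differed by -0.61 ± 0.24 (adjusted p = 0.0807), and its samples did not overlap. Cacna1g, a T-type channel that opens near the resting potential, differed by 0.12 ± 0.27 (adjusted p = 0.794). Cacnb1 differed by -0.30 ± 0.25 (adjusted p = 0.434).

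Of 10 sodium channel genes 1 rose, 1 fell and 8 did not pass with FBS, where 13.2% of all probe sets rose and 12.3% fell. Scn1a, an alpha subunit of central neurons, had LD samples at 2.90, 2.68 and 3.42 and FBS samples at 4.47, 4.78, 4.36 and 4.36. All FBS samples were above all samples of the other groups, although all 14 lay below the array median. In deposited units these are intensities of 1.4 to 5.7 in LD and 15.5 to 22.5 in FBS. The rise was 1.49 ± 0.29 log2 units (adjusted p = 0.000749), and it passed under all 26 alternatives that kept the probe set (8.9e-05 to 0.00777), with 2.27 at an offset of 1 and 0.50 at an offset of 32. It has 1 probe set. Scn2b, the beta2 subunit that links sodium channels to adhesion molecules, fell by 1.24 ± 0.39 (adjusted p = 0.0269) on a weak probe set, from 3.75, 5.33 and 4.94 in LD to 3.07, 3.78, 3.36 and 3.55 in FBS. One LD sample lay within the FBS range, so the groups overlapped. The Scn2b call ended without LD sample 3 (0.143), LD sample 4 (0.0946), FBS sample 1 (0.0789) or FBS sample 3 (0.0585). It also ended with the GAPDH covariate, where the difference was -0.60 (0.391), with quantile normalization (0.0563) and with the numbered sample as a random block (0.0517), within 0.00383 to 0.391 over the alternatives.

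Of 54 potassium channel genes, 0 rose and 2 fell with FBS, where 13.2% of all probe sets rose and 12.3% fell. Kcnq3 (Kv7.3), a subunit of the M-current that damps repetitive firing, had LD samples at 6.69, 6.34 and 6.24 and FBS samples at 5.73, 5.99, 5.70 and 5.61. All FBS samples were lower, and the fall was -0.67 ± 0.23 log2 units (adjusted p = 0.041). Kcnj3 (Kir3.1), a G-protein-gated inward rectifier on a weak probe set, had LD samples at 6.10, 5.68 and 5.30 and FBS samples at 4.83, 4.83, 4.53 and 3.89. These groups did not overlap either, and it fell by 1.17 ± 0.38 (adjusted p = 0.0289). Both calls rested on few samples. The Kcnq3 call ended without HD sample 1 (0.0504) or 2 (0.0523), LD sample 1 (0.162) or 3 (0.0708), or FBS sample 1 (0.082), 3 (0.0863) or 4 (0.0931), and with array 3 alone for FBS sample 3 (0.0654), within 0.00723 to 0.162. That of Kcnj3 ended without LD sample 1 (0.123) or 3 (0.0678) or FBS sample 3 (0.055) or 4 (0.0898), within 0.0045 to 0.123. The second probe sets of Kcnq3 and Kcnj3, each weak, differed by -0.06 ± 0.20 and 0.11 ± 0.32 and did not pass.

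Other potassium channel genes were near the threshold or far from it. Kcna1 differed by 0.76 ± 0.30 (adjusted p = 0.0835), with averaged FBS samples at 6.15 to 6.43 above LD samples at 5.38 to 5.63. By single arrays, LD array 1a of Kcna1, at an intensity of 101.3, lay above all FBS arrays (65.8 to 86.6), while LD array 1b read 18.1. Kcnh2 (the hERG channel) differed by -0.62 ± 0.24 (adjusted p = 0.0699), with LD at 7.34 to 7.99 and FBS at 6.60 to 7.31. Kcnh3, a channel of the same family found mainly in forebrain neurons, differed by -0.10 ± 0.15 (adjusted p = 0.714). Kcnmb1, the beta1 subunit of smooth muscle calcium-activated channels, differed by 0.21 ± 0.22 (adjusted p = 0.56). Kcnj10, chosen after its values were seen because it encodes the glial Kir4.1, is on a weak probe set and lay at 4.56, 3.67 and 3.07 in LD and at 4.58, 5.44, 5.18 and 4.81 in FBS. The FBS samples were all higher, but the lowest FBS and the highest LD sample nearly met, and the difference of 1.24 ± 0.52 did not pass (adjusted p = 0.102). Its second, also weak, probe set differed by 0.24 ± 0.23.

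**Figure D2:**
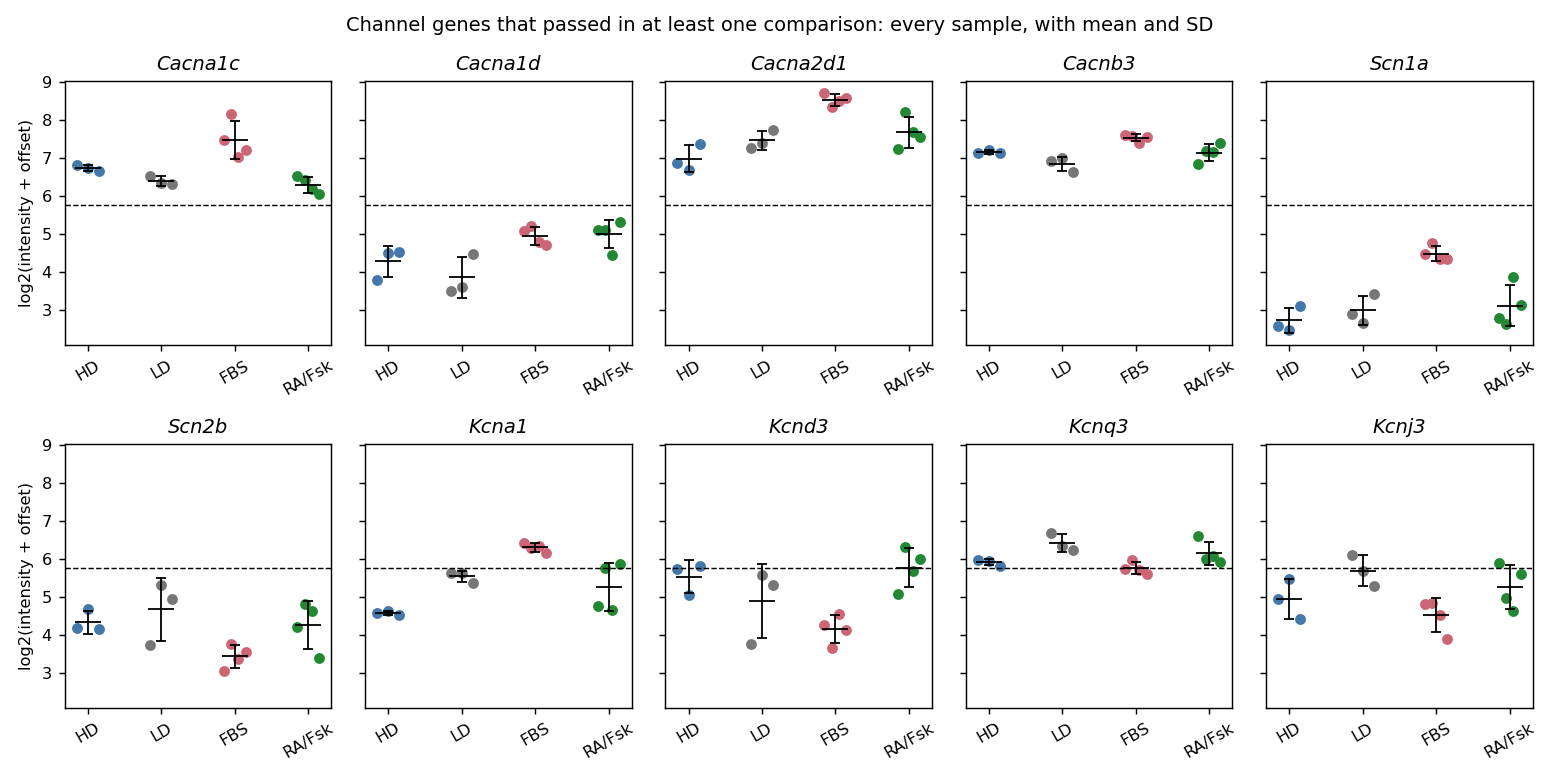
Level of the 10 channel genes that passed at least once, in log2(intensity + 4.99) (y axis), in each sample of the 4 groups (points), with mean and SD (bars). The dashed line is the median of all values, 5.77; Cacna1d, Scn1a and Scn2b stay below it in all 14 samples.

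**Figure D3:**
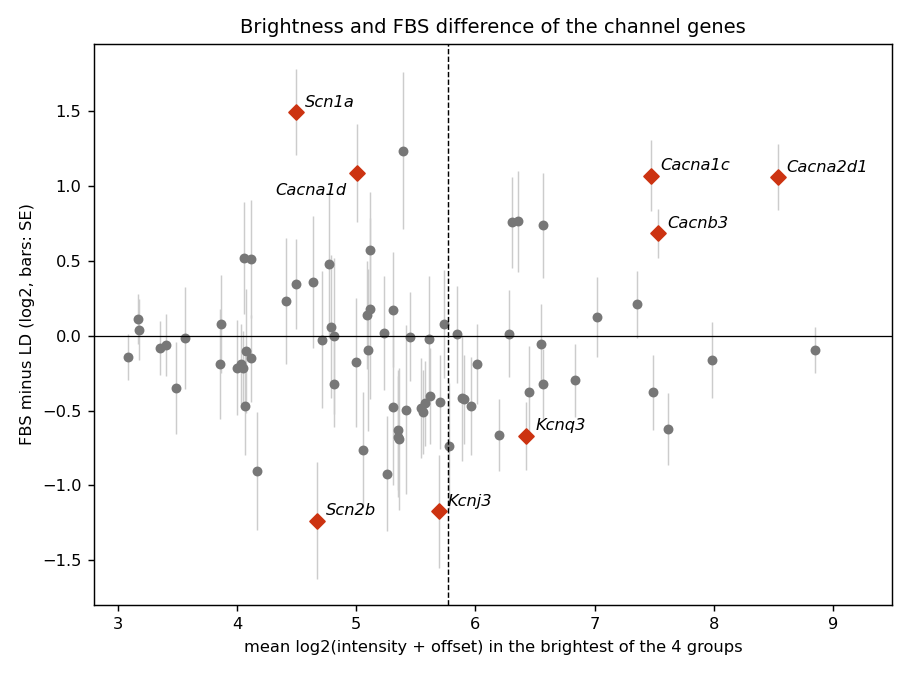
Difference between FBS and LD (y axis, log2 units, bars are SE) against the mean level in the brightest group (x axis, log2 units) for the 78 channel genes. Red diamonds are the 8 genes that passed, and the dashed line at 5.77 divides weak probe sets on the left from the others.

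Genes of the same physiology that lie outside the 3 symbol families gave the background of ion transport. Of 28 other cation channels measured, 4 rose and 1 fell with FBS, and of 16 pumps and cotransporters 5 rose and 0 fell, where 13.2% of all probe sets rose and 12.3% fell. The beta subunits of the sodium pump, Atp1b1, Atp1b2 and Atp1b3, rose by 1.25 ± 0.16, 1.18 ± 0.22 and 0.85 ± 0.18 log2 units. The chloride cotransporter gene Slc12a2 rose by 1.29 ± 0.29. Slc12a5, on a weak probe set, rose by 0.81 ± 0.24, from a mean of 3.25 in LD to 4.05 in FBS. Among the channels, Itpr1, the inositol trisphosphate receptor that releases stored calcium, rose by 1.60 ± 0.34. The ATP-gated channels P2rx1 and P2rx4 rose by 2.06 ± 0.46 and 1.06 ± 0.19. On weak probe sets, the endolysosomal channel gene Tpcn1 rose by 1.70 ± 0.41 and Trpc4 fell by 0.86 ± 0.29.

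Some markers of other cell types and of progenitors also changed with FBS. Of 5 neural progenitor markers 3 fell, Fabp7 by 1.79, Hes5 by 1.21 and Notch1 by 0.51 log2 units, with a sum of 6463 to 6883 in FBS and 5183 to 7399 in LD. Of 8 neuron markers 1, Nefm, rose, by 2.26, with a sum of 1324 to 1592 in FBS. Of 8 oligodendrocyte markers Mbp rose by 1.46 and Pdgfra fell by 2.51, with a sum of 1683 to 2132 in FBS and 2120 to 2869 in LD. All 8 measured astrocyte markers together summed to 5999 to 8017 in FBS and 2030 to 2624 in LD. Of 9 fibroblast and smooth muscle markers 1, Tagln, rose, by 3.45 log2 units. Their summed intensity was 612 to 1026 in FBS and 331 to 415 in LD. Much of that rise lay in Tagln, which went from a mean of 5.06 in LD to 8.51 in FBS. The median difference of the 9 markers was 0.14. Of 4 Schwann markers 1, S100a4, rose, with a sum of 2571 to 3158 in FBS and 1204 to 1417 in LD. Much of the rise of this sum lay in S100a4, from a mean of 5.87 in LD to 10.27 in FBS. Pmp22 and Prx differed by 0.79 and 0.77 and Ngfr by -0.14, and none of them passed. Of 7 microglia and macrophage markers 0 changed in limma (0 also at an unadjusted p under 0.05), and their sum was 156 to 230 in FBS and 177 to 265 in LD. The part of these cells in the channel differences was not tested.

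With RA/Fsk, Cacna1d rose and no other channel gene passed. That is 1 gene up (1.28%, with 4.71% of all probe sets) and 0 down (3.54%). In limma 5 channel genes had an unadjusted p under 0.05 (6.41%, with 21.1% of all probe sets), 3 higher and 2 lower. The median difference was 0.00 over the channel genes and -0.05 over all probe sets. Samples did not overlap for 2 genes, Kcns3 and Kcnk5, both lower with RA/Fsk (2.56%, with 15.5% of all probe sets).

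Cacna1d lay at 5.12, 5.12, 4.46 and 5.34 in RA/Fsk. LD sample 4, at 4.48, fell within that range, so the groups overlapped. The rise was 1.14 ± 0.33 log2 units (adjusted p = 0.0404). It was close to that with FBS, and the difference between RA/Fsk and FBS was 0.05 ± 0.30 (95% interval -0.59 to 0.69). Both rises were measured against the same LD samples. The call ended without LD sample 1 (0.147) or 3 (0.148), RA/Fsk sample 1 (0.0632), 2 (0.0842) or 4 (0.092), FBS sample 1 (0.0555), 2 (0.0506) or 3 (0.0558), or HD sample 2 (0.0502). The labels state no pairs, but deviations of LD and RA/Fsk samples of the same number correlated at 0.11 to 0.33 in these data. Those numbers were therefore taken as pairs, and the paired value stands beside the unpaired rise. With the replicate block in the fit of all groups, which also ties HD and FBS samples by number, the rise was 1.06 (adjusted p = 0.0499). With the block over the 3 pairs alone, the only fit limited to these pairs, it was 1.10 (adjusted p = 0.155). Over the alternatives the adjusted p lay within 0.0188 to 0.155. None of the 4 other Cacna1d probe sets passed here either (-0.18 to 0.36).

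Kcnj10 had the largest difference with RA/Fsk, at 1.63 ± 0.52 log2 units, but did not pass (adjusted p = 0.0684). Its RA/Fsk samples were at 6.65, 5.43, 3.99 and 5.50, and the third of these lay among the LD samples. With quantile normalization, or without RA/Fsk sample 3, it passed, and its second probe set differed by 0.19 ± 0.23. Kcnd3 (Kv4.3), which carries the A-type current that delays firing, differed by 0.89 ± 0.42 (adjusted p = 0.244) between RA/Fsk and LD. Channels of presynaptic terminals differed by less, with 0.09 ± 0.25 for Cacna1a (adjusted p = 0.895, 95% interval -0.45 to 0.63) and 0.29 ± 0.25 for Cacna1b (adjusted p = 0.584, -0.24 to 0.83). A second probe set of each gene, also not weak, differed by 0.45 ± 0.23 (Cacna1a) and 0.43 ± 0.24 (Cacna1b) and did not pass. The weak probe sets of Cacna1a differed by 0.37 and -0.66 and did not pass either. Scn1a differed by 0.12 ± 0.29 (adjusted p = 0.871). In the companion lists 2 other cation channels rose, Orai1, the pore of store-operated calcium entry, by 0.91 ± 0.20 and P2rx4 by 1.14 ± 0.19, and 0 fell. Of the 16 pumps and cotransporters 0 passed in limma, 1 at an unadjusted p under 0.05. Of 8 oligodendrocyte markers 2, Mbp and Cnp, rose with RA/Fsk, and of 5 neural progenitor markers 0 passed in limma, 2 being lower at an unadjusted p under 0.05.

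Between the treated groups, compared without LD, 4 channel genes were lower with RA/Fsk than with FBS (5.13%, with 10.1% of all probe sets) and 1 was higher (1.28%, with 8.27%). With median centring 4 were lower and 3 higher. Cacna1c differed by -1.18 ± 0.22 log2 units (adjusted p = 0.001), Scn1a by -1.37 ± 0.26 (adjusted p = 0.00123), Cacna2d1 by -0.85 ± 0.20 (adjusted p = 0.0067) and Kcna1 by -1.04 ± 0.28 (adjusted p = 0.0153). Kcnd3 was higher with RA/Fsk, by 1.62 ± 0.39 (adjusted p = 0.00696). For these 5 genes no averaged sample of one treatment reached the range of the other, which held for 9 channel genes in all (11.5%, with 21.5% of all probe sets).

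Markers and companion genes differed between the treated groups too. Tagln differed by -3.73 log2 units and Acta2 by -0.58 (2 of 9 fibroblast and smooth muscle markers lower with RA/Fsk), S100a4 by -3.23 (1 of 4 Schwann markers) and Gap43 by -0.71 (1 of 8 neuron markers). Of 8 astrocyte markers Slc1a3 was lower by -1.76 and Aldoc higher by 0.76. Of 8 oligodendrocyte markers 3 were higher, Pdgfra by 2.43, Cnp by 0.92 and Sox10 by 0.86. Of 5 progenitor markers Fabp7 was higher by 2.23 and Vim lower by -0.79. The summed intensity of RA/Fsk samples was 272 to 434 for the fibroblast and smooth muscle list, 1005 to 1627 for the Schwann list and 2766 to 4774 for the oligodendrocyte list. That of the astrocyte list was 8005 to 9357 and that of the progenitor list 4234 to 6039. Much of the gap to FBS in the fibroblast and Schwann sums lay in Tagln and S100a4. Of 16 pumps and cotransporters 4 were lower and 0 higher, and of 28 other cation channels 2 were lower and 2 higher. The part of these cells in the channel differences was not tested here either.

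The RA/Fsk samples of Cacna1c were at 6.54, 6.42, 6.18 and 6.05, in the range of LD, and the call ended with array 3r alone for FBS sample 3 (adjusted p = 0.0711, within 0.000109 to 0.0711). Its 2 other probe sets differed by 0.21 and 0.16 and did not pass. Scn1a lay at 2.81, 2.65, 3.88 and 3.15 in RA/Fsk, all below the lowest FBS sample, and passed under the 26 alternatives that kept it (0.000133 to 0.0108). Kcna1 lay at 4.77, 5.77, 4.67 and 5.86, in 2 clearly separate pairs, while its FBS samples stayed within 6.15 to 6.43. Its call ended with the numbered sample as a random block (0.0773, within 0.00663 to 0.0773), and its other, weak probe set differed by -0.33 ± 0.41. Kcnd3 lay at 5.09, 6.31, 5.70 and 6.0 with RA/Fsk and at 4.26, 3.67, 4.54 and 4.14 with FBS. FBS sample 3 averages array 3 at 3.71 and array 3r at 5.37, the latter within the RA/Fsk range, and Kcnd3 passed with either array alone. With the GAPDH ratio as a covariate its difference was 0.92 (adjusted p = 0.171, within 0.00163 to 0.171), and its 2 other probe sets, both weak, differed by 0.32 and -0.10 and did not pass.

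Cacna1b came near the threshold in this comparison. Its samples were at 7.34, 7.87, 6.89 and 7.85 with RA/Fsk and at 6.42, 7.32, 6.73 and 6.80 with FBS, which overlap, and the difference was 0.67 ± 0.23 (adjusted p = 0.0572). The second Cacna1b probe set, also not weak, passed at 1.04 ± 0.23 (adjusted p = 0.00331), with group means of 6.66 and 5.63. It was the only one of 18 further probe sets of the named genes to pass in any comparison. Among all 47 channel probe sets not used, those of Scn4a and Scn7a also passed here, both weak and lower with RA/Fsk, by -0.91 and -1.29. The brighter probe sets of Scn4a and Scn7a differed by 0.18 and -0.27 and did not pass.

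**Figure D4:**
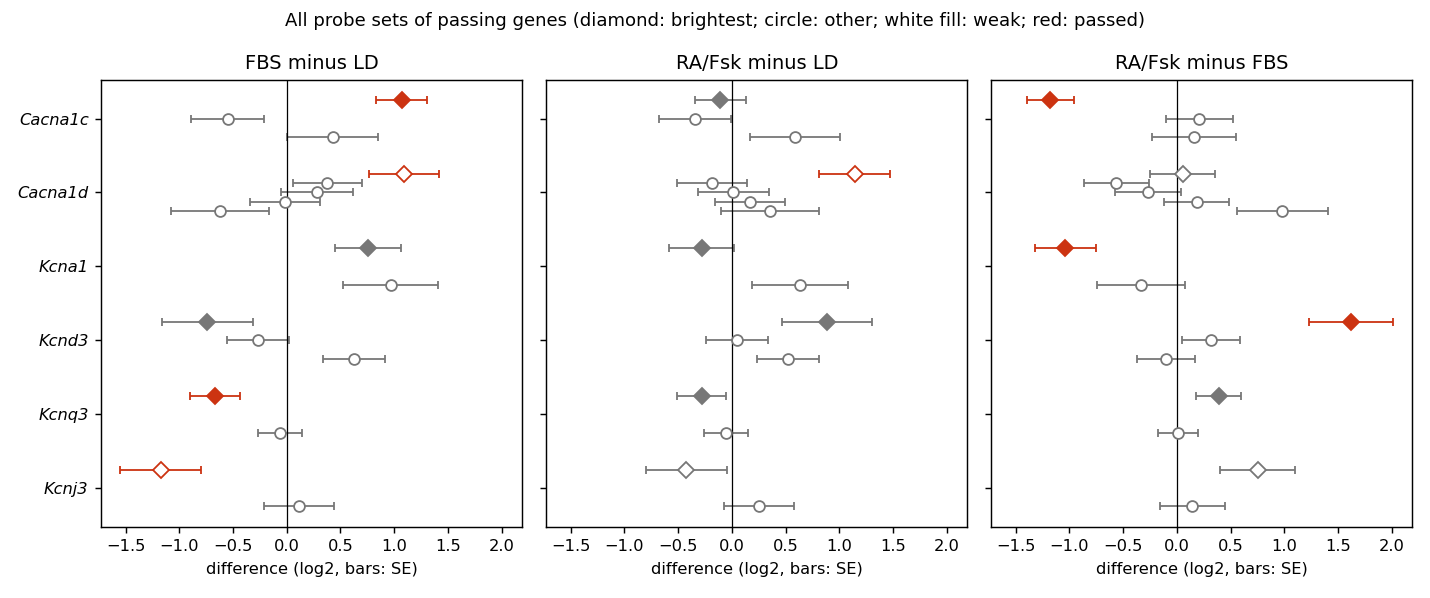
Differences (x axis, log2 units, bars are SE) for every probe set of the 6 genes that passed at least once and have several probe sets (y axis). Diamonds are the brightest probe set of a gene and circles the others, white fill marks weak probe sets and red marks those that passed; none of the circles is red.

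By family, the counts and median differences were as follows. Among 27 voltage-gated potassium alpha subunits the median difference was -0.10 log2 units with FBS and -0.02 with RA/Fsk, and 20 of the 27 were weak. Among 15 inward rectifiers, 12 of them weak, it was -0.19 and -0.07. The 3 two-pore leak channels, which hold the resting potential, were all weak and 0 of them passed. Of 4 calcium- or sodium-activated channels (3 weak) and 5 accessory subunits of potassium channels (3 weak) 0 passed in any comparison. The share of all probe sets that passed was 0.858% to 25.5%, depending on the comparison. The 9 sodium alpha subunits had a median of -0.21 with FBS and 0.00 with RA/Fsk, and the only sodium beta subunit gene, Scn2b, differed by -1.24 and -0.41. Medians of the 8 calcium alpha1 subunits were -0.08 and 0.26, and those of the 6 calcium accessory subunits 0.20 and 0.05. With FBS 2 of the 8 and 2 of the 6 passed, where 25.5% of all probe sets did. Over all probe sets the medians were -0.09 with FBS and -0.05 with RA/Fsk.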

How the data were processed

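Gene expression was measured on 20 rat arrays of 8799 probe sets. The deposited table holds 1 linear intensity per probe set and array. The authors' processing is not given in the sources used here; after 2% of values at each end are left out, array means lie at 200.3 to 200.5, from which a common scaling is inferred. The 59 control probe sets were left out. Symbols came from GEO's platform annotation (7006 probe sets with 1 symbol, 308 with several, 1426 with none), and all 78 channel genes were found in RefSeq of GRCr8 with 0 symbols changed.

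Arrays of a numbered sample were averaged on the log2 scale, and all 4 groups were fitted with limma 3.58.1 (R 4.3.3, eBayes with an intensity trend, 10 residual degrees of freedom), with Benjamini-Hochberg adjustment over 8740 probe sets. The fit was tested on simulated data. Intervals are 95%. Named genes were the 10 that passed and the 10 brightest by mean (17 in all), with exceptions stated. The members and lists were chosen with earlier results of these data known. Alternatives covered offset, normalization, dim probe sets, array averaging, probe set choice, the GAPDH ratio, the replicate block and each sample left out; the block over LD and RA/Fsk pairs alone was chosen after seeing the data. Deviations from group means correlated at 0.33, 0.16 and 0.11 between LD and RA/Fsk samples of the same number, so those numbers were taken to pair the samples, which the labels do not state.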

Additional observations from a re-analysis of the deposited data

How the results depend on the processing

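Counts of channel genes were small, so single calls moved them. With FBS against LD, 5 higher became 3 without the dimmest 50% of probe sets (which removes Cacna1d and Scn1a) and 3 with the GAPDH covariate, and 3 lower became 6 with median centring and 5 with arrays taken singly, with the GAPDH covariate and with the replicate block. With RA/Fsk against LD, 1 higher became 2 with quantile normalization and 0 without the dimmest 50%, with the numbered sample as a random block, with array 3r alone for FBS sample 3, with the 2 groups alone, and with the replicate block over the LD and RA/Fsk pairs alone. With RA/Fsk against FBS, 1 higher became 2 with quantile normalization, without the dimmest 25%, with each array as its own sample, with the random block, with the replicate block and with any probe set of a gene, 3 with median centring and 4 with the GAPDH covariate, and 4 lower became 2 without the dimmest 50%. With any probe set of a gene, Scn4a and Scn7a also joined the genes lower with RA/Fsk than with FBS. With HD against LD, 0 lower became 1 with each array as its own sample. Beyond what the filters remove, the cause was not tested. With 1 sample left out, the counts ran from 4 to 6 higher and 0 to 4 lower (FBS against LD; 0 without FBS sample 3 and 1 without FBS sample 1 or 4), 0 to 2 and 0 to 0 (RA/Fsk against LD; 2 without RA/Fsk sample 3, and 0 without HD sample 2, LD sample 3, FBS sample 1, 2 or 3 or RA/Fsk sample 1 or 4), 1 to 3 and 4 to 4 (RA/Fsk against FBS; 3 without RA/Fsk sample 3 and 2 without FBS sample 2 or RA/Fsk sample 2 or 4), and 0 to 0 (HD against LD, both directions). For Cacna1c between RA/Fsk and FBS, the median over its 3 probe sets was 0.16, opposite in sign to the -1.18 of the brightest. With the replicate block in the fit of all groups, which also ties HD and FBS samples by number, no call of the 17 named genes changed between RA/Fsk and LD. Apart from that fit, shared numbers outside LD and RA/Fsk were not taken as pairs. Of 6 samples of FBS and LD 3 correlated best with their own number, and of 8 of RA/Fsk and FBS 3 did. Between HD and LD 4 of 4 did, at r of 0.14 and 0.09, but only 2 numbers are shared there. The GAPDH covariate moved the median of all probe sets from -0.09 to -0.24 with FBS against LD.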
